A study of Mus musculus with 14 samples.

Results

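The BAF complex is the mammalian SWI/SNF chromatin remodeler, an assembly that uses ATP to slide or evict nucleosomes. Of its subunits, 10 genes, among them pairs of paralogs that can take the same place in the complex, were followed here: Smarca4, Smarca2, Smarcc1, Smarcc2, Smarcd1, Smarcd3, Actl6a, Arid1a, Dpf1 and Dpf2. They were chosen by symbol, and every probe set that the platform annotation gives to one of these symbols alone was taken, on every array. This gave 10 of the 18194 genes on the array and 21 of its 45101 probe sets. All 10 genes and 20 of the 21 probe sets passed the filter on low values. Smarca2 passed it through the arrays of differentiated cells, since it was near or under the intensity floor of 32 in undifferentiated cells. The probe set that did not pass was 1420240_at of Smarcd1, which read between 7.9 and 28.2 on all 14 arrays.

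Each complex holds 1 ATPase, either SMARCA4 (BRG1) or SMARCA2 (BRM). SMARCC1 and SMARCC2 (BAF155 and BAF170) form the scaffold, SMARCD1 and SMARCD3 (BAF60A and BAF60C) link the complex to transcription factors, ACTL6A (BAF53A) is an actin-related subunit, ARID1A (BAF250A) binds DNA, and DPF1 and DPF2 (BAF45B and BAF45D) carry histone-reading PHD fingers. Pluripotent cells are known for a form built on BRG1 and BAF155, called esBAF, which is needed for self-renewal. Differentiating cells take up BRM and BAF170, heart and muscle cells use BAF60C, and neurons replace BAF53A by its paralog ACTL6B and use BAF45B. The retinoblastoma protein RB1 is known to bind BRG1 and BRM.

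The study measured total RNA from mouse embryoid bodies (EB), aggregates in which embryonic stem cells differentiate, and from embryonic stem cells (ESC), on Affymetrix arrays. The 4 groups were TKO EB (5 arrays, of the lines 2-55-2, 14-14-4, 7-4-1, Dutch and Ta1-12), WT EB (3 arrays, of B21, J1 and R1), TKO ESC (3 arrays, of 7-4-1, Dutch and Ta1-12) and WT ESC (3 arrays, of B21, J1 and R1). The labels do not spell out TKO, which was read as loss of Rb1, Rbl1 and Rbl2, the Rb gene family of the series title, and WT as wild type. They give no promoter, targeting construct or treatment, and no source used here says how long EB were cultured. Each array of a group is a different cell line, and the series text counts the lines as biological replicates. Below, the arrays of a group are always listed in the order of lines given here.

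Some arrays stood apart. Pou5f1, the pluripotency factor Oct4, read 1542.2, 6132.8, 146.8, 7410.3 and 17.1 in TKO EB and 38.8, 32.8 and 55.2 in WT EB, against 11053.2 to 12950.1 in TKO ESC and 9879.8 to 11680.7 in WT ESC. The TKO EB arrays of Dutch and 14-14-4 were thus nearest to the ESC level. The summed intensity of 8 pluripotent markers ran from 4774 to 72653 in TKO EB and from 3563 to 4450 in WT EB, against 91503 to 97577 in TKO ESC and 73068 to 96852 in WT ESC, so ESC carried the markers of their label. Of these markers only Esrrb was under the floor throughout a group, WT EB. Rbl1, one of the genes read as deleted, had a WT range of 355.6 to 1089.6. The arrays labelled TKO Ta1-12 lay inside or above it, at 1095.9 in TKO EB and 492.5 in TKO ESC. Those labelled TKO Dutch read 377.1 in TKO EB, also inside it, and 250.3 in TKO ESC, below it. On the other TKO arrays Rbl1 lay between 15.9 and 38.3. Rb1 and Rbl2 overlapped between genotypes at both stages, and where their probes lie relative to the deletions is not given, so they check nothing.

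The promoters of Smarca2, which had the largest fold change of the members, and of Smarcd1 and Actl6a, which fell together, are printed. Each is 300 bases around the start of the gene in RefSeq (mouse assembly GRCm38.p6), most of them before it, 5′ to 3′ on the gene's own strand, the plus strand in each case. They lie at chr19:26604910-26605209 (Smarca2), chr15:99702037-99702336 (Smarcd1) and chr3:32708296-32708595 (Actl6a). Capitals mark GC boxes, the letters GGGCGG on either strand, and in Smarcd1 also a match to an E2F site.

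Smarca2 promoter: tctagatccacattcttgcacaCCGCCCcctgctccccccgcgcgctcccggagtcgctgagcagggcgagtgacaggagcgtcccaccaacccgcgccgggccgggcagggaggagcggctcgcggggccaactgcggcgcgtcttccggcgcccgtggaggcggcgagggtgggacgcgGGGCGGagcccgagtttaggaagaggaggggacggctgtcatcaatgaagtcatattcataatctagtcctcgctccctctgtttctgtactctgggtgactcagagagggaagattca
Smarcd1 promoter: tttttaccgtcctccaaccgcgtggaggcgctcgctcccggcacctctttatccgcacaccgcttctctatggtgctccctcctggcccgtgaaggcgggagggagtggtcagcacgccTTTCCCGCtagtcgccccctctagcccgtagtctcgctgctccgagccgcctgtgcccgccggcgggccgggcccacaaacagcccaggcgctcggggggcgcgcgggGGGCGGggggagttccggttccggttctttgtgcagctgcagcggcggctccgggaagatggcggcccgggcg
Actl6a promoter: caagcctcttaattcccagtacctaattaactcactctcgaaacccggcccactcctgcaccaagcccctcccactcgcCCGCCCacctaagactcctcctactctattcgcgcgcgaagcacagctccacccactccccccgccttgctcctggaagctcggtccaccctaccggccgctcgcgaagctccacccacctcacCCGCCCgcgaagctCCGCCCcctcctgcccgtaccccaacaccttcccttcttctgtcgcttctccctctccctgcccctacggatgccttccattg

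The search covered TTTGGCGC, TTTGCCGC, TTTCGCGC and TTTCCCGC, the core of an E2F site, then GGGCGG and CCAAT, each on both strands. RefSeq listed 11 promoters for the 10 genes, of which Arid1a had 2. GC boxes stood in 10 of the 11, all but that of Dpf2, against 35.7% of all 32851 promoters of the same length. An E2F match stood in the Smarcd1 promoter (TTTCCCGC, 131 bases before the start) and in 1 of the Arid1a promoters (the same letters, 55 bases before the start, overlapping a GC box), against 2.26% of all promoters. CCAAT stood in the promoters of Dpf1 and Dpf2, against 37.4% of all. The 11 promoters held 20 to 48 CpG dinucleotides, where the median of all promoters was 7 and the upper quartile 20. These are matches of letters, and binding was not measured.

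On differentiation Smarca2 and Smarcc2 rose in both genotypes, while their paralogs Smarca4 and Smarcc1 did not pass the test. Smarcd1 and Actl6a fell in both. In TKO EB versus TKO ESC 3 members were higher (Smarca2, Smarcc2 and Dpf2) and 3 lower (Smarcd1, Actl6a and Dpf1) at an adjusted p below 0.05, where 20.8% and 14.9% of the 14365 genes tested were higher and lower. In WT EB versus WT ESC 4 were higher (Smarca2, Smarcc2, Smarcd3 and Dpf2) and 2 lower (Smarcd1 and Actl6a), where 26.2% and 17.4% of all genes were. All tests are limma fits over the 14 arrays with Benjamini-Hochberg adjustment over all genes, and the ± beside a log2 fold change is its standard error in that fit. The members' median log2 fold change was -0.15 in TKO and -0.18 in WT, against 0.08 and 0.13 over all genes. Embryoid bodies are mixtures, and in such bulk samples fewer cells of a type and less RNA per cell cannot be told apart.

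**Figure D1:**
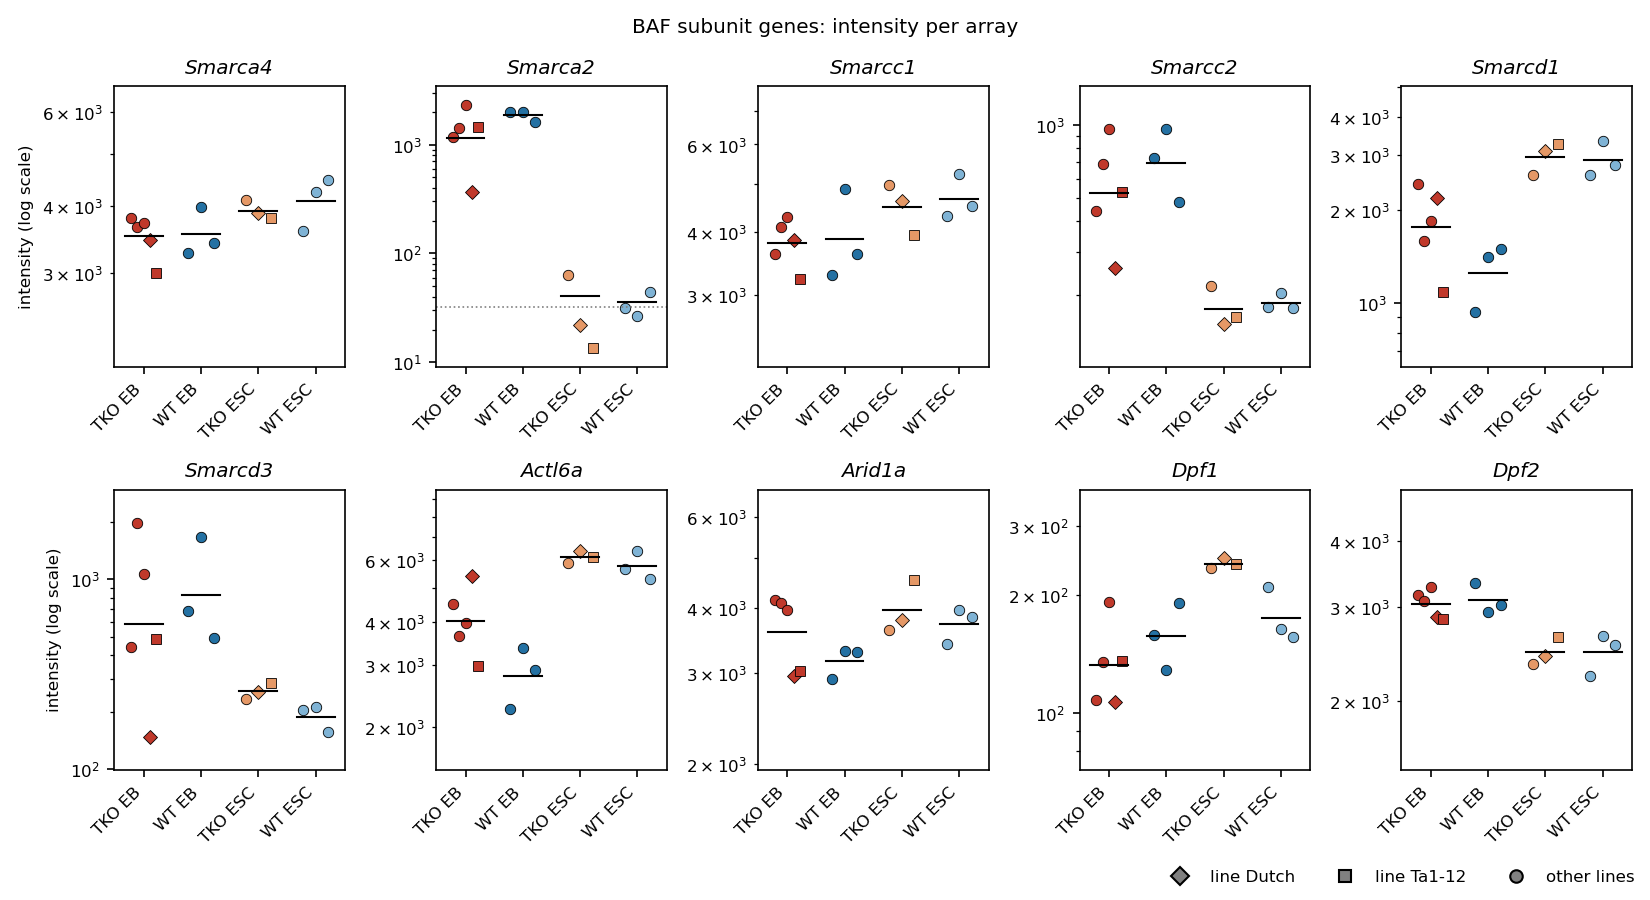
Intensity of the probe set that stands for each gene, on a log axis, with 1 point per array and the 4 groups along the x axis (TKO EB n = 5, others n = 3). Horizontal lines are means of the floored log2 values, the dotted line is the floor of 32, diamonds are line Dutch and squares line Ta1-12. Smarca2 is at or near the floor in ESC and between 366.4 and 2299.1 in EB.

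Of the ATPase pair, Smarca2 rose in both genotypes and Smarca4 did not pass the test. Smarca2, read by 1430526_a_at, was at 1416.1, 1164.4, 2299.1, 366.4 and 1456.1 in TKO EB and at 1997.6, 1976.9 and 1625.7 in WT EB, against 63.6, 21.8 and 13.6 in TKO ESC and 31.3, 26.7 and 44.0 in WT ESC. Every EB array was above every ESC array, and the TKO EB array of Dutch was the lowest of the EB arrays by far. The log2 fold change was 4.84 ± 0.46 in TKO (adjusted p = 3.31e-05) and 5.71 ± 0.52 in WT (adjusted p = 3.91e-05). Of all genes tested, 0.459% had a higher log2 fold change in TKO and 0.466% in WT. On this floored scale the folds are 28.6 and 52.2. They are lower bounds for this probe set only, because 2 of 3 arrays of TKO ESC and 2 of 3 of WT ESC lay below the floor.

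Smarca4, the ATPase of esBAF, read 3649.7, 3802.8, 3718.0, 3457.4 and 3007.1 in TKO EB and 3269.9, 3993.0 and 3420.0 in WT EB, against 4105.6, 3882.7 and 3795.9 in TKO ESC and 3589.7, 4252.5 and 4469.1 in WT ESC. The EB arrays overlapped the ESC arrays in both genotypes. On the log2 scale the change was -0.16 ± 0.11 in TKO (adjusted p = 0.282) and -0.20 ± 0.12 in WT (adjusted p = 0.198). The WT change passed the test with array weights (-0.25, adjusted p = 0.0331), and when the arrays were quantile normalised (-0.36) or centred on their medians (-0.41). Its second probe set gave -0.41 in TKO and -0.30 in WT and did not pass (adjusted p = 0.0959 and 0.259 in limma over probe sets).

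The second probe set of Smarca2, 1452333_at, moved the same way by less. It was at 159.0, 178.3, 207.1, 108.6 and 221.4 in TKO EB and 314.4, 273.4 and 343.5 in WT EB, against 66.3 to 78.6 in TKO ESC and 64.2 to 71.0 in WT ESC. In log2 terms the change was 1.21 ± 0.21 in TKO and 2.19 ± 0.24 in WT, and both passed the test in limma over probe sets (adjusted p = 0.00125 and 9.92e-05). Every TKO EB array was below every WT EB array with this probe set, a pattern that 2.59% of the 31122 probe sets tested showed, whereas with 1430526_a_at the EB arrays of the genotypes overlapped. The difference of TKO EB from WT EB was -0.86 ± 0.21 and did not pass (adjusted p = 0.330 in limma over probe sets).

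Among the scaffold subunits Smarcc2 rose. It read 688.7, 440.4, 962.9, 258.0 and 529.2 in TKO EB and 733.5, 957.3 and 478.9 in WT EB, against 217.0, 151.2 and 162.4 in TKO ESC and 178.6, 202.5 and 176.0 in WT ESC. No EB array overlapped ESC, and the TKO EB array of Dutch was nearest to ESC. The log2 fold change was 1.59 ± 0.36 in TKO (3.01-fold, adjusted p = 0.00503) and 1.91 ± 0.40 in WT (3.75-fold, adjusted p = 0.00293). Smarcc2 has 1 probe set, so no second reading exists for this rise.

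Smarcc1, the scaffold subunit of esBAF, did not pass the test with the probe set that stands for it, and its 4 probe sets differed in their calls. The brightest, 1423416_at, read 4102.5, 3609.8, 4302.0, 3863.4 and 3221.0 in TKO EB and 3288.8, 4884.3 and 3615.1 in WT EB, against 4972.8, 4619.7 and 3950.9 in TKO ESC and 4318.2, 5241.1 and 4509.7 in WT ESC. Stages overlapped in both genotypes, and the log2 fold changes of -0.24 ± 0.14 in TKO (adjusted p = 0.206) and -0.27 ± 0.16 in WT (adjusted p = 0.183) did not pass. The other probe sets were also lower in EB, with -0.44 to -0.72 in TKO and -0.54 to -0.89 in WT, although 1459824_at read only 8.5 to 103.2. Of these, 1423417_at passed in TKO (adjusted p = 0.0366) and 1455246_at in WT (adjusted p = 0.00351, limma over probe sets). With the mean of the 4 probe sets, Smarcc1 passed in TKO (-0.51, adjusted p = 0.0383) and in WT (-0.62, adjusted p = 0.0219). It also passed in WT with array weights (-0.37, adjusted p = 0.0321), with arrays centred on their medians (-0.48, adjusted p = 0.0402) and when WT EB J1, the array with the highest EB value, was left out (-0.44, adjusted p = 0.0397).

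Of the SMARCD subunits, Smarcd1 fell in both genotypes and Smarcd3 rose in WT. Smarcd1 read 1580.8, 2418.9, 1842.6, 2190.3 and 1085.3 in TKO EB and 933.1, 1406.4 and 1492.4 in WT EB, against 2595.8, 3092.9 and 3258.9 in TKO ESC and 2594.2, 3348.4 and 2786.2 in WT ESC. Every EB array was below every ESC array of its genotype, and the TKO EB arrays of 14-14-4 and Dutch came closest to ESC. On the log2 scale the change was -0.76 ± 0.24 in TKO (adjusted p = 0.0286) and -1.21 ± 0.27 in WT (adjusted p = 0.0041). The TKO call was lost without either of TKO ESC Dutch (adjusted p = 0.0872) and TKO ESC Ta1-12 (0.102), without TKO EB 2-55-2 (0.0568) and without both Ta1-12 arrays (-0.52, adjusted p = 0.133). It was also lost with cell line as a fixed block (-0.86, adjusted p = 0.0543) and in a fit of only TKO EB and TKO ESC (adjusted p = 0.0589). With the mean of the probe sets of Smarcd1 the call was lost too (-0.38, adjusted p = 0.0652). That mean takes in 1420240_at, which lay under the floor on every array, so its floored value is constant and shrinks the change. The fixed block, here and below, took only lines measured at both stages and so left out TKO EB 2-55-2 and 14-14-4.

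Smarcd3, the BAF60C subunit of heart and muscle, differed widely between lines within EB. It read 1982.1, 440.4, 1066.4, 148.0 and 486.9 in TKO EB and 678.7, 1680.8 and 489.5 in WT EB, against 235.6, 255.2 and 285.7 in TKO ESC and 204.3, 213.2 and 156.7 in WT ESC. All WT EB arrays were above WT ESC, while the TKO EB array of Dutch was below every TKO ESC array and the other 4 were above. In log2 terms the change was 1.17 ± 0.65 in TKO (adjusted p = 0.18) and 2.12 ± 0.73 in WT (4.34-fold, adjusted p = 0.033). The TKO change passed with array weights on all arrays (1.82, adjusted p = 0.00977) and without TKO EB Dutch (1.67, adjusted p = 0.0202). The WT call was lost without WT EB J1 (1.60, adjusted p = 0.124), without any of WT EB B21, WT ESC B21, WT ESC J1 or WT ESC R1, under quantile normalization (1.86) and without the filter. Summed over 10 heart and skeletal muscle markers, intensity was 62581, 694, 16582, 5034 and 11180 in TKO EB and 32117, 46088 and 7468 in WT EB, and at most 1292 in ESC. Of these markers Tnnt2, Myh7, Myog and Myod1 were under the floor on all TKO ESC arrays and Tnnt2 and Myog on all WT ESC arrays, and none was throughout an EB group. Smarcd3 and this sum were both highest in 2-55-2 among TKO EB and in J1 among WT EB. Both were lowest in R1 among WT EB, but among TKO EB Smarcd3 was lowest in Dutch and the sum in 14-14-4. The part of muscle cells in the Smarcd3 signal was not tested.

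Actl6a, the actin-related subunit of dividing progenitors, fell in both genotypes with all 3 of its probe sets. The one standing for the gene, 1456730_x_at, read 3647.7, 4492.5, 3961.6, 5413.6 and 2991.3 in TKO EB and 2246.1, 3367.1 and 2911.3 in WT EB, against 5893.7, 6370.8 and 6151.2 in TKO ESC and 5665.4, 6393.1 and 5310.7 in WT ESC. No EB array overlapped ESC of its genotype, with Dutch again nearest to ESC. The log2 fold change was -0.61 ± 0.17 in TKO (adjusted p = 0.0166) and -1.04 ± 0.20 in WT (adjusted p = 0.00158). The others gave -1.05 in TKO with both, and -1.55 and -0.93 in WT, each past the test in limma over probe sets. In TKO the call of the gene was lost without TKO ESC Dutch (adjusted p = 0.0607), without TKO ESC Ta1-12 (0.0534), without both Ta1-12 arrays (0.0762) and with cell line as a fixed block (0.051).

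The summed intensity of 7 cycling markers was 48415, 44203, 53251, 50572 and 18456 in TKO EB and 15146, 30894 and 28985 in WT EB, against 40237 to 45351 in TKO ESC and 43304 to 44567 in WT ESC, with none at or under the floor throughout a group. Ta1-12 was the lowest TKO EB array for these markers, for Smarcd1 and for Actl6a, and B21 the lowest WT EB array for all of them. The highest arrays differed. Among TKO EB the sum was highest in 7-4-1, Smarcd1 in 14-14-4 and Actl6a in Dutch. Among WT EB the sum and Actl6a were highest in J1 and Smarcd1 in R1. The part of cycling cells in either fall was not tested.

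**Figure D2:**
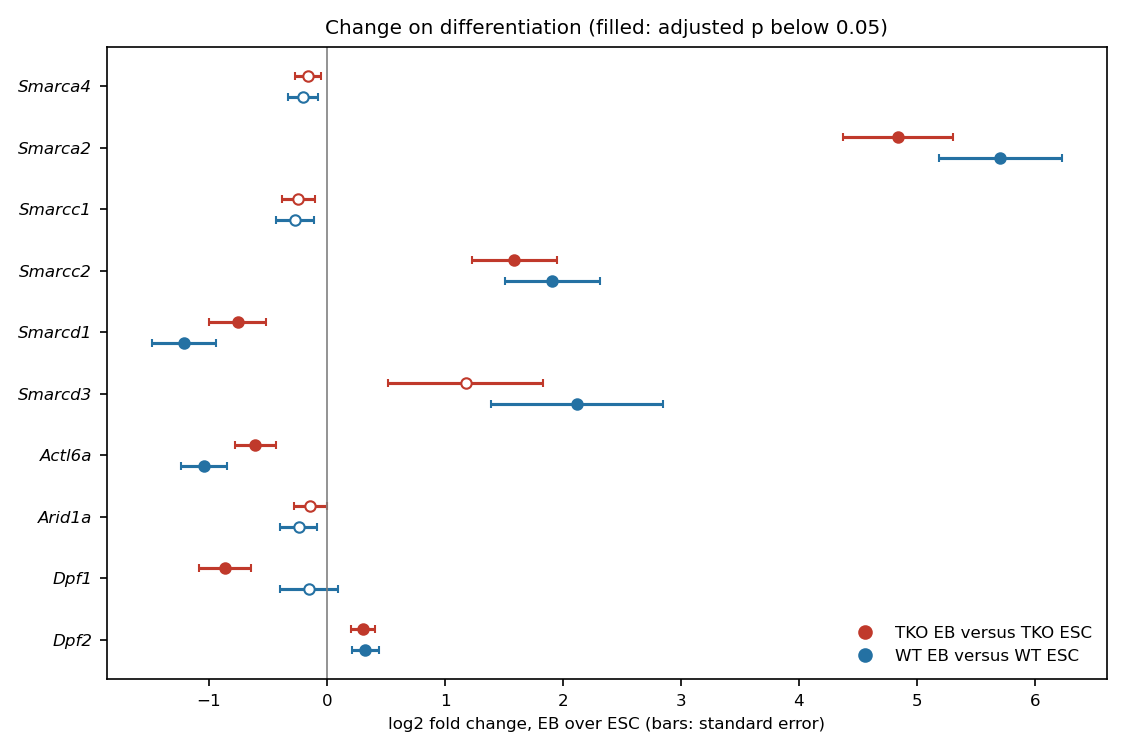
Log2 fold change of EB over ESC for each member (x axis) in TKO (5 against 3 arrays) and WT (3 against 3 arrays), with standard errors from limma as bars. Filled points passed an adjusted p of 0.05. Smarca2 and Smarcc2 lie to the right of 0 and Smarcd1 and Actl6a to the left in both genotypes.

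Arid1a, the DNA-binding subunit, did not pass the test in either genotype as deposited. It read 4093.0, 4138.5, 3968.3, 2954.8 and 3019.9 in TKO EB and 2909.5, 3305.6 and 3288.9 in WT EB, against 3625.3, 3799.4 and 4524.4 in TKO ESC and 3412.4, 3959.3 and 3852.5 in WT ESC. Every WT EB array was below every WT ESC array, while the TKO stages overlapped. On the log2 scale the change was -0.14 ± 0.14 in TKO (adjusted p = 0.448) and -0.24 ± 0.16 in WT (adjusted p = 0.225). With array weights the WT change passed (-0.31, adjusted p = 0.0277). Its second probe set gave -0.16 in TKO and -0.21 in WT.

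Of the PHD finger subunits, Dpf2 rose slightly in both genotypes and Dpf1 fell in TKO. Dpf2 read 3085.0, 3169.8, 3274.4, 2879.7 and 2855.9 in TKO EB and 3326.8, 2939.5 and 3032.1 in WT EB, against 2348.0, 2433.1 and 2640.9 in TKO ESC and 2226.1, 2652.3 and 2550.3 in WT ESC. The EB arrays were all above ESC of their genotype, by 1.23-fold in TKO (0.30 ± 0.10 on the log2 scale, adjusted p = 0.0333) and 1.25-fold in WT (0.33 ± 0.11, adjusted p = 0.0336). Both calls were lost under quantile normalization (0.19 in TKO, 0.14 in WT), median centring, the mean of its probe sets, a fit without variance trend, a fixed block of cell line (0.28 in TKO, adjusted p = 0.219, and 0.33 in WT, adjusted p = 0.13) and a fit of only the groups compared. Leaving out 1 array ended the TKO call for 5 of the 14 arrays (TKO EB 2-55-2, 14-14-4 and 7-4-1, TKO ESC 7-4-1 and Dutch) and the WT call for 4 (B21 and R1 at either stage). Its other probe set was lower in EB, by -0.18 ± 0.23 in TKO and -0.07 ± 0.25 in WT, and did not pass.

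Dpf1, the subunit known from neurons, read 135.1, 107.6, 191.5, 106.9 and 135.7 in TKO EB and 158.1, 128.7 and 190.5 in WT EB, against 234.1, 248.1 and 239.9 in TKO ESC and 209.5, 163.7 and 156.1 in WT ESC. The TKO stages did not overlap and the WT stages did. In log2 terms the change was -0.86 ± 0.22 in TKO (adjusted p = 0.00927) and -0.16 ± 0.25 in WT (adjusted p = 0.628), and the TKO call was lost with cell line as a fixed block (-0.78, adjusted p = 0.0879). The dimmer probe set, 1420529_at, gave the reverse pattern of calls, with -0.60 in TKO (adjusted p = 0.0542) and -0.81 in WT (adjusted p = 0.0215). It read 45.4 to 62.4 in TKO EB and 22.3 to 59.0 in WT EB, against 60.9 to 103.6 in TKO ESC and 70.6 to 80.5 in WT ESC. The summed intensity of 10 neuron markers was 1068 to 14228 in TKO EB, highest in 7-4-1, and 1048 to 5392 in WT EB, against 10234 to 11420 in TKO ESC and 10635 to 13927 in WT ESC. Most of the ESC sum came from Stmn2 alone, which read 82.7 to 3119.9 in TKO EB and 118.8 to 795.2 in WT EB, against 7592.7 to 9229.9 in TKO ESC and 7971.6 to 9035.9 in WT ESC. The marker Dcx was under the floor on all TKO ESC and WT ESC arrays. Dpf1 was also highest in 7-4-1 among TKO EB. Among WT EB it went the other way, as J1 had the highest neuron sum (5392) and the lowest Dpf1 (128.7). The part of neurons in the Dpf1 signal was not tested.

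**Figure D3:**
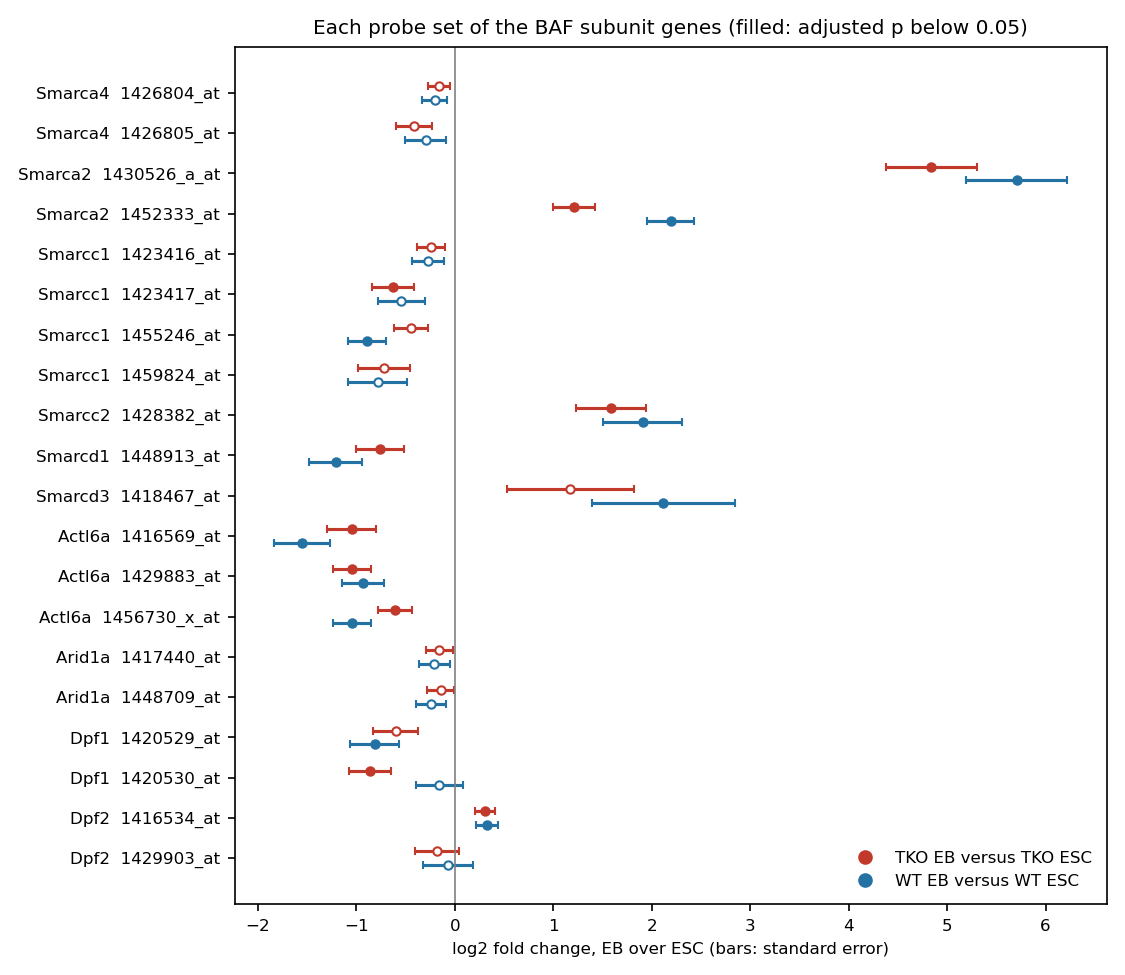
Log2 fold change of EB over ESC for each of the 20 tested probe sets (x axis) in TKO and WT, with standard errors as bars and filled points past an adjusted p of 0.05 over probe sets. The 3 probe sets of Actl6a are filled in both genotypes, while those of Smarcc1, Dpf1 and Dpf2 differ in their calls.

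Counted by probe set, 4 of the 20 were higher and 6 lower in TKO EB versus TKO ESC, where 18.1% and 16.9% of all probe sets tested were higher and lower. In WT EB versus WT ESC 5 were higher and 6 lower, where 22.7% and 17.6% were. Without overlap between the arrays, 3 members were higher and 3 lower in TKO EB versus TKO ESC, where 22% and 14.6% of genes were. In WT EB versus WT ESC 4 were higher and 3 lower, where 35.4% and 25.3% were.

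Within each array the log2 ratio of paralogs was taken and the mean of WT ESC subtracted, so that the level of one probe set was not set against another. For Smarca2 these are lower bounds, because it lay under the floor on 2 of 3 WT ESC arrays. Smarca2 to Smarca4 moved by at least 5.48, 5.14, 6.15, 3.61 and 5.80 in TKO EB and by at least 6.13, 5.83 and 5.77 in WT EB, while in TKO ESC 2 of 3 arrays were at the floor themselves. Smarcc2 to Smarcc1 moved by 2.08, 1.62, 2.50, 0.75 and 2.05 in TKO EB and by 2.49, 2.31 and 1.74 in WT EB, against -0.28 to 0.14 in TKO ESC. Smarcd3 to Smarcd1 moved by 4.26, 1.47, 3.14, 0.04 and 2.77 in TKO EB and by 3.47, 4.19 and 2.32 in WT EB, against 0.33 to 0.47 in TKO ESC. All 3 ratios were lowest in the TKO EB array of Dutch, where the third was below every TKO ESC array. Dpf1 to Dpf2 moved by -0.69, -1.06, -0.28, -0.93 and -0.58 in TKO EB and -0.58, -0.69 and -0.17 in WT EB, against 0.36 to 0.53 in TKO ESC.

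**Figure D4:**
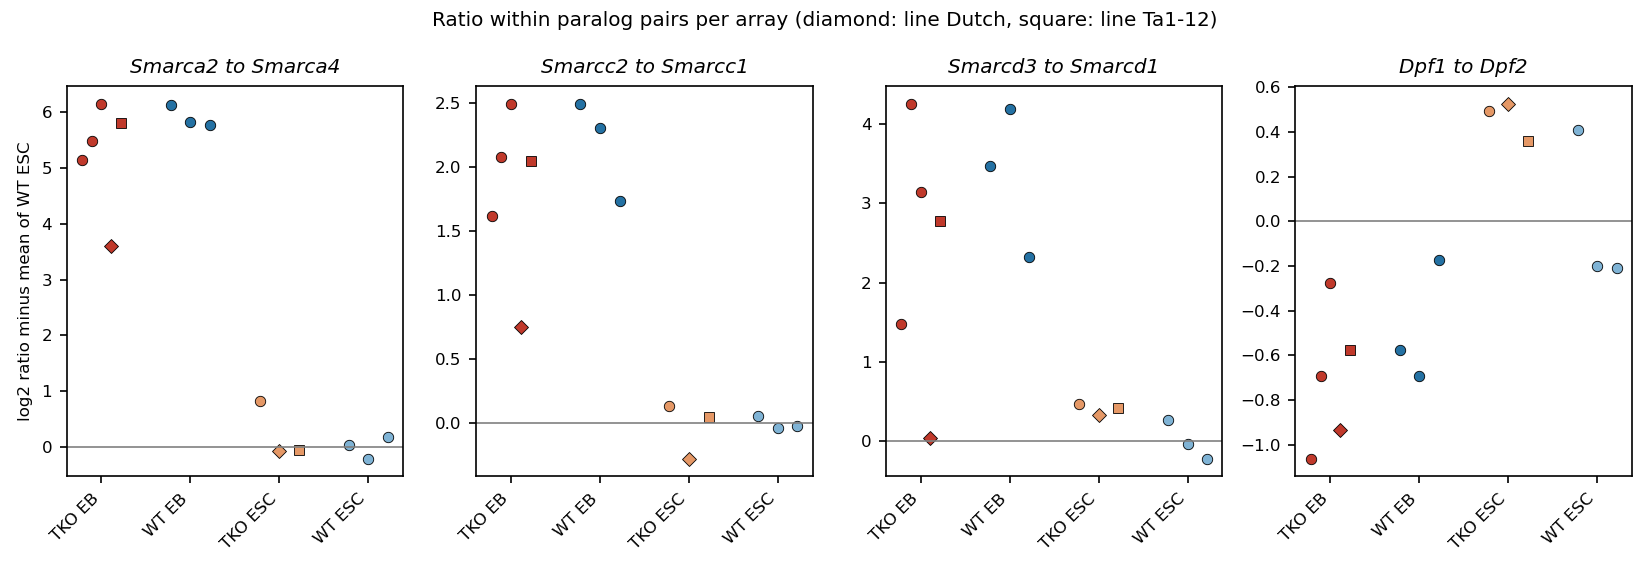
Log2 ratio within each paralog pair minus the mean of WT ESC (y axis), 1 point per array and 1 panel per pair, with groups along the x axis (TKO EB n = 5, others n = 3). Diamonds are line Dutch and squares line Ta1-12. For Smarca2 the EB points are lower bounds set by the floor of 32 in WT ESC. The Dutch diamond in TKO EB is the lowest EB point of the first 3 panels.

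The lines could be followed one by one where both stages were measured. From the TKO ESC array to the TKO EB array of the same line, Smarca2 changed by 5.18 in 7-4-1, at least 3.52 in Dutch and at least 5.51 in Ta1-12 on the log2 scale, and in WT by at least 5.96 in B21, at least 5.95 in J1 and 5.21 in R1. The bounds are the lines whose ESC array lay under the floor, so their sizes cannot be ordered against the others. Smarcc2 changed by 2.15, 0.77 and 1.70 in the same TKO lines and by 2.04, 2.24 and 1.44 in the WT lines. Smarcd1 changed by -0.49, -0.50 and -1.59 in the TKO lines and by -1.48, -1.25 and -0.90 in the WT lines. Actl6a changed by -0.57, -0.23 and -1.04 in the TKO lines and by -1.33, -0.93 and -0.87 in the WT lines. For Smarcd3 the changes were 2.18, -0.79 and 0.77 in the TKO lines and 1.73, 2.98 and 1.64 in the WT lines. In all 6 lines Smarca2 and Smarcc2 were higher and Smarcd1 and Actl6a lower in EB. The stages of each genotype did not overlap for these genes, so these directions were fixed beforehand and are no separate reading.

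Dutch, with the highest Pou5f1, had the lowest Smarca2, Smarcc2 and Smarcd3 and the highest Actl6a of the TKO EB arrays. For Dpf1 and Arid1a it was the TKO EB array farthest from the TKO ESC mean (-1.17 and -0.42 on the log2 scale). Smarcd1 was nearest to that mean in 14-14-4 (-0.30, against -0.44 in Dutch). Dutch also had the lowest sum of 8 fibroblast markers, 26628 against 55664 to 110084 on the other TKO EB arrays, 91141 to 105430 in WT EB and at most 1016 in ESC, where Lum was under the floor on all arrays. Without TKO EB Dutch and 14-14-4, the TKO log2 fold changes were 5.38 ± 0.30 for Smarca2, 2.01 ± 0.29 for Smarcc2, 1.97 ± 0.51 for Smarcd3 (adjusted p = 0.00931), -1.02 ± 0.23 for Smarcd1 and -0.81 ± 0.15 for Actl6a. Smarca4 gave -0.19 and Dpf2 0.31. Dpf1 (-0.66), Arid1a (-0.12) and Smarcc1 (-0.23) changed less than with all arrays. The arrays left out are those with Pou5f1 nearest to ESC, so this fit is no independent reading of the pattern in Dutch. The part of undifferentiated cells in these values was not tested. Dutch was nearest to the TKO ESC mean for 3 of the 6 members (50%), and 60.2% of the 6260 genes, that passed the test on WT differentiation. Over all 10 members Dutch was nearest for 3, and 14-14-4 and 7-4-1 were nearest for 3 each.

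**Figure D5:**
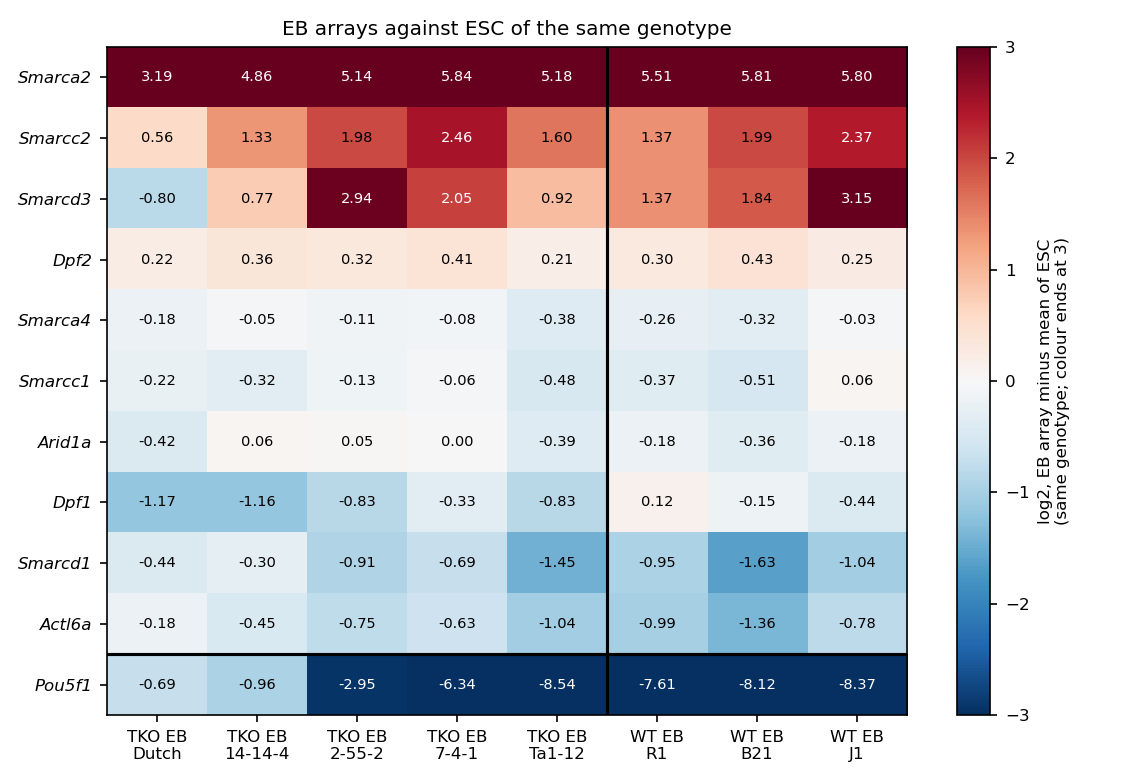
Log2 intensity of each EB array minus the mean of the ESC arrays of its genotype, for the 10 members and Pou5f1, with 5 TKO EB columns left of 3 WT EB columns. Red is higher and blue lower than ESC, and the colour ends at 3. ESC values of Smarca2 under the floor were set to it, so its differences are lower bounds. Smarca2 is red in all 8 columns, with at least 3.19 in Dutch, and Smarcd1 and Actl6a are blue in all 8.

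The effect of genotype on these changes was not detectable with these arrays. In the test of the difference between the TKO and the WT change, 0 of the 10 members and 0% of all genes passed in limma, and at an unadjusted p below 0.05 it was 0 members and 522 genes (3.63%). The difference was -0.87 ± 0.70 for Smarca2, -0.32 ± 0.54 for Smarcc2, 0.45 ± 0.36 for Smarcd1, 0.43 ± 0.26 for Actl6a and -0.71 ± 0.33 for Dpf1. The lowest adjusted p among the members was 0.975, so the calls that fell in 1 genotype only, of Smarcd3 and Dpf1, are not shown to differ between them.

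In undifferentiated cells no member passed the test between genotypes. In TKO ESC versus WT ESC 0 members and 0% of all genes passed in limma, and at an unadjusted p below 0.05 it was 0 members and 394 genes (2.74%). The log2 fold changes ran from -0.09 (Smarcc2, ± 0.40) to 0.46 (Dpf1, ± 0.25). The TKO ESC arrays were all above WT ESC for Dpf1 and for Smarcd3 (0.44 ± 0.73), 2 of 10 members, where 4.78% of all genes were higher without overlap. None was lower without overlap, where 7.33% of genes were. With array weights Dpf1 passed (0.55 ± 0.14, adjusted p = 0.0401).

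In TKO EB versus WT EB 0 members and 0% of all genes passed in limma, and at an unadjusted p below 0.05 it was 1 member (Actl6a) and 2034 genes (14.2%). Actl6a was 0.52 ± 0.17 higher (1.43-fold, adjusted p = 0.303 in limma) and Smarcd1 0.49 ± 0.24 higher (adjusted p = 0.376). Smarca2 was at -0.69 ± 0.46 (adjusted p = 0.486) and Smarcd3 at -0.50 ± 0.65 (adjusted p = 0.731). The EB arrays of the genotypes overlapped for all 10 members, where 0.898% and 3.05% of genes were higher and lower without overlap. Without TKO EB Ta1-12, Actl6a passed (0.63, adjusted p = 0.0268), and then 1422 genes in all did. Without both Ta1-12 arrays it passed as well (adjusted p = 0.042), with 1101 genes in all.

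The members also varied together over the 14 arrays, which share their stage and line. Smarcd1 and Actl6a correlated with each other at r = 0.97, and Smarca2 and Smarcc2 at r = 0.95. Smarca4 and Smarcc1, the esBAF pair, correlated at r = 0.845, and Smarca2 and Actl6a at r = -0.87. Genes with only clone or locus names were left out of the search for similar patterns. Of the other genes among the 14365 tested, the patterns most like Smarca2 were those of Dcn (r = 0.994), Lum (r = 0.993) and Dctn4 (r = 0.992). Dcn and Lum encode matrix proteoglycans and Dctn4 a dynactin subunit. Most like Smarcc1 were Pdxp, a pyridoxal phosphatase (r = 0.868), Patz1, a zinc finger transcription factor (r = 0.861), and Smarca4. These are descriptions over 14 arrays in which the difference between ESC and EB weighs heavily.

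Of 11 other subunits that can belong to canonical BAF, 4 were higher and 0 lower in TKO EB versus TKO ESC and 5 were higher and 0 lower in WT EB versus WT ESC. Of all genes tested, 20.8% were higher and 14.9% lower in TKO, and 26.2% and 17.4% in WT. The median log2 fold change of the 11 was 0.38 in TKO and 0.39 in WT, against 0.08 and 0.13 over all genes. Arid1b, the paralog of Arid1a, rose by 0.97 ± 0.19 in TKO (adjusted p = 0.00251) and 1.01 ± 0.22 in WT (adjusted p = 0.00328). Bcl11b, a zinc finger subunit best known from T cells, rose by 2.46 ± 0.51 in TKO and 2.73 ± 0.57 in WT (adjusted p = 0.00301 and 0.00269), and its relative Bcl11a by 2.68 ± 0.71 and 2.57 ± 0.80 (adjusted p = 0.0113 and 0.0202). Actb, which also encodes cytoplasmic actin, rose in WT by 0.23 ± 0.07 (adjusted p = 0.0163) and gave 0.13 ± 0.06 in TKO (adjusted p = 0.106).

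Of the other subunits found in neurons or muscle, 2 of 3 were tested and none passed in either genotype. Actl6b, the neuronal paralog of Actl6a, was not tested: it read 68.6 in the TKO EB array of 7-4-1 and at most 34.1 on the other 13. Ss18l1, the neuronal paralog of Ss18, was also highest in that array, at 305.0, against 95.6 to 182.4 on the other TKO EB arrays, 152.2 to 201.0 in WT EB, 159.9 to 180.1 in TKO ESC and 177.0 to 230.0 in WT ESC. This was the TKO EB array with the highest sum of neuron markers.

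The related PBAF complex carries PBRM1 and lacks ARID1 subunits, and ncBAF carries BICRA or BICRAL. Of 4 PBAF genes, 1 was higher in TKO EB versus TKO ESC (Pbrm1, 0.43 ± 0.15, adjusted p = 0.0392) and 0 passed in WT, where Pbrm1 was at 0.19 ± 0.17. Of 3 ncBAF genes, Bicral fell by 1.71 on the log2 scale in TKO (adjusted p = 0.00101) and by 1.35 in WT (adjusted p = 0.00585). Bicra passed in TKO (0.42 ± 0.14, adjusted p = 0.0321) and was at 0.28 ± 0.15 in WT. Beside these few genes, 20.8% of all genes were higher and 14.9% lower in TKO, and 26.2% and 17.4% in WT.

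Of 20 remodelers of the ISWI, CHD and INO80 families, 2 were higher and 7 lower in TKO EB versus TKO ESC, and 2 higher and 9 lower in WT EB versus WT ESC. Ruvbl1 and Ruvbl2, the paired AAA+ ATPases of INO80, fell by 1.12 and 0.76 on the log2 scale in TKO and by 1.39 and 1.27 in WT. Smarcad1, a remodeler that helps restore silent chromatin after replication, fell by 0.74 in TKO and 0.58 in WT. Smarca1, the ISWI ATPase SNF2L, rose by 2.22 ± 0.39 in TKO and 2.29 ± 0.44 in WT (adjusted p = 0.00123 and 0.00179). The median of the 20 was -0.46 in TKO and -0.57 in WT, against 0.08 and 0.13 over all genes. Their calls stand beside 20.8% of all genes higher and 14.9% lower in TKO, and 26.2% and 17.4% in WT.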

How the data were processed

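Per the labels' protocols, total RNA was taken up in Trizol, and biotin-labelled targets were read on Affymetrix arrays. The deposited table holds linear intensity values that the authors had summarised to probe sets, from 0.596 to 25701.6. No source used here gives their background correction, scaling or summarisation. Values were raised to a floor of 32 and taken as log2 of the deposited intensity. Array medians differed by at most 0.374 on that scale and no further scaling was applied. The medians followed the stage in part. As intensity they ran from 87.2 to 100.5 in TKO EB and from 92.0 to 107.9 in WT EB. In TKO ESC they ran from 83.2 to 89.2 and in WT ESC from 86.1 to 89.3, so every WT EB median was above every ESC median. The platform annotation gave 34958 probe sets 1 gene symbol, 932 several and 9211 none, and 34754 matched a RefSeq gene table of GRCm38.p6. A gene was read by its brightest probe set, by mean over the 14 arrays. A gene was tested where this probe set lay above the 40th percentile of its array on at least 3 arrays.

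A limma 3.58.1 model in R 4.3.3 (lmFit, then eBayes with a variance trend) gave each group its mean. Benjamini-Hochberg adjustment covered all genes of a comparison, and calls needed an adjusted p below 0.05. The groups share 1 estimate of spread. Where nothing beyond the line names says that samples were separate cultures, p-values measure the spread between these lines. The procedure was tested on simulated data. The number of arrays limits the precision.

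Line names in the titles pair the stages. Deviations from group means correlated between the ESC and EB array of a line at -0.05 (B21), -0.08 (J1), -0.04 (R1), 0.07 (7-4-1), 0.20 (Dutch) and 0.09 (Ta1-12).

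Named genes were the 10 members, up to 4 genes per list of other remodelers with the smallest adjusted p past the threshold on differentiation, Rb1, Rbl1, Rbl2 and Pou5f1 beside results, and the 3 genes most correlated with Smarca2 and with Smarcc1. Genes with only clone or locus names were left out of the ranking by correlation. Actl6b, Ss18l1 and Stmn2 were named after their values were seen. The members and lists were chosen with earlier results of these data known. Alternatives covered the floor, scaling, filter, probe set rule, variance model, cell line as a block and the arrays in the fit. Promoters came from RefSeq and were searched for letters only. Summed markers of visceral endoderm ran from 5950 to 55449 in TKO EB and from 16113 to 37076 in WT EB, and reached at most 627 in ESC. Figures were drawn with matplotlib 3.10.9.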

Additional observations from a re-analysis of the deposited data

How the results depend on the processing

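Smarca2 and Smarcc2 passed the test in all 28 alternatives of both differentiation comparisons, with log2 changes of 3.03 to 5.38 in TKO and 3.95 to 5.86 in WT for Smarca2 and of 1.37 to 2.01 and 1.65 to 2.18 for Smarcc2. Smarcd1 and Actl6a passed in 21 and 24 of 28 in TKO and in all 28 in WT. With cell line as a fixed replicate block, 2 members (Smarca2 and Smarcc2) and 3161 genes passed in TKO EB versus TKO ESC, against 6 and 5132. In WT the fixed block ended only the call of Dpf2. With cell line as a random block (correlation 0.032) no member's call changed in either differentiation comparison, that of Dpf2 included. Leaving out 1 array gave 3 to 7 members in TKO EB versus TKO ESC (3 without TKO ESC Dutch) and 4 to 6 in WT EB versus WT ESC. No share over all genes is set beside these ranges, so they do not set the members apart from other genes. Without both Ta1-12 arrays 3068 genes passed in TKO EB versus TKO ESC, and Arid1a turned to 0.0165 (adjusted p = 0.951). The quantile scaling shifted the median of all genes in WT EB versus WT ESC to -0.07, against 0.13 as deposited, and the split of calls to 3027 higher and 3478 lower, against 3767 and 2493. In TKO the split was 2619 and 2768, against 2987 and 2145, and median centring gave 2969 and 3292 in WT and 2531 and 2563 in TKO. In the differentiation comparisons no member changed direction with scaling. For the difference of both changes, 4 genes passed with array weights, 1 without the filter, 5 without both Ta1-12 arrays and 0 to 26 with 1 array left out (26 without TKO EB Ta1-12), and 0 members. In TKO ESC versus WT ESC 697 genes passed with array weights (1 member, Dpf1), 1 with a floor of 64, 2 without the filter and 0 to 5 with 1 array left out (5 without WT ESC B21). In TKO EB versus WT EB 8 genes passed with array weights, 8 with a floor of 64, 1101 without both Ta1-12 arrays (1 member, Actl6a) and 0 to 1422 with 1 array left out, with 0 to 1 members. The cause of these shifts was not tested. Of the values under the alternatives for the 10 members in both differentiation comparisons, Actl6a, Smarcd1 and Smarca2 in TKO EB versus WT EB and Dpf1 in the difference, 613 kept their direction and side of the threshold, 40 lost the call, 14 gained it and 1 turned sign.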
